A study of Mus musculus with 10 samples.

Results

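The genes described here are 10 transcripts that mark antigen-presenting and myeloid cells, read in RNA from whole mouse liver. They are Cd74, H2-Aa, H2-Ab1, H2-Eb1 and H2-DMa of the MHC class II pathway, and Ptprc, Lyz2, Csf1r, S100a8 and S100a9. They were taken by name, 10 of the 55385 gene IDs in the deposited tables, and each matched 1 ID. Frozen liver was homogenised and its total RNA sequenced on the BGISeq-500, giving 5 control libraries (genotype Ctrl) and 5 libraries labelled Alk1-HEC-KO (genotype KO). Alk1 is another name of Acvrl1, an endothelial receptor for BMP ligands. The labels give no strain, age, sex, treatment, Cre driver or meaning of the letters HEC, nor whether each library was a different animal. P-values therefore reflect the scatter of the libraries, which may be technical.

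The gene named in the genotype label was not lower under it: Acvrl1 had a mean of 0.669 ± 0.331 TPM in the controls against 1.36 ± 0.331 TPM in the others (SD, n = 5 each), with a log2 fold change of 0.99 (SE 0.32, edgeR adjusted p = 0.34). The groups overlapped in log2 CPM, and gene totals of whole liver cannot show whether a gene was lost in 1 cell type. The group is therefore called the labelled knockout throughout, and each direction below is labelled knockout over control. TPM is a transcript's abundance corrected for its length, with an equal total in each library. Depth was even, from 20.91 to 21.56 M estimated counts per library. The hepatocyte transcript Alb stood at 20686 to 45945 TPM across the labelled knockout libraries and 21119 to 45351 TPM across the controls. The deposited files carry numbers in 3 consecutive runs whose meaning the labels do not give. The third run holds labelled knockout libraries 2, 4 and 5 and no control. A fit with the run as a covariate therefore takes the group difference from labelled knockout libraries 1 and 3 and the controls alone. Acute-phase transcripts also set libraries apart: Saa1 was at 6733 TPM in labelled knockout library 4, at 13331 TPM in library 5 and at 6586 TPM in control library 4, and below 1000 TPM elsewhere.

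MHC class II molecules present peptides from engulfed material to CD4+ T cells. Their alpha and beta chains (H2-Aa with H2-Ab1, the I-A molecule, and H2-Eb1 as the beta chain of I-E) assemble on the invariant chain, which Cd74 encodes, and H2-DM then exchanges the leftover invariant chain fragment for peptide. In liver these genes are used mainly by dendritic cells, B cells and macrophages, and at lower level by sinusoidal endothelium. Ptprc encodes CD45, carried by nearly all leukocytes. Csf1r is the receptor through which CSF1 and IL-34 maintain macrophages, including the liver's resident Kupffer cells, and Lyz2 is the lysozyme of myeloid cells. S100a8 and S100a9 form calprotectin, the abundant cytosolic protein of neutrophils and freshly recruited monocytes.

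The class II genes share a promoter design, a W/S, X and Y box module read by the RFX and NF-Y factors and the coactivator CIITA, while S100a8 and S100a9 lie side by side on another chromosome. RefSeq promoter windows (GRCm38.p6, 250 bases before to 50 after the start) were matched for 7 of the 10 genes. Cd74 and Csf1r were not searched, and H2-Ab1 had no window. Both strands were searched for CTGATTGG, a Y box holding an inverted CCAAT, for AACNGATG, an X box core, and for TATAAA. These 3 motifs do not overlap one another in the windows shown. The windows of the member H2-DMa held neither CTGATTGG nor AACNGATG. From each of 4 windows that hold a match, the 170 bases from 150 before to 20 after the start are given below. They run 5′ to 3′ on the gene's own strand, with matches in capitals, to show where the matches lie.
H2-Aa, chr17:34287804-34287973, minus strand: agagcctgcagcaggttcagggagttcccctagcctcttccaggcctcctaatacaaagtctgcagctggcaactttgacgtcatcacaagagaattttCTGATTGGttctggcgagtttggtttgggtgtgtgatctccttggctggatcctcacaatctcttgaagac
H2-Eb1, chr17:34305717-34305886, plus strand: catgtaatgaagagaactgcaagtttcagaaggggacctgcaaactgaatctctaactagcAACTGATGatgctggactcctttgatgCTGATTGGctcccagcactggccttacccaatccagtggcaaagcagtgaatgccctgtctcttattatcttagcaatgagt
S100a8, chr3:90668921-90669090, plus strand: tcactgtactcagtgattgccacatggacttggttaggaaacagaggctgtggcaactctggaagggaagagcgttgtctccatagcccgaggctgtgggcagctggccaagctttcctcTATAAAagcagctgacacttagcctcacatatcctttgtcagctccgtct
S100a9, chr3:90695702-90695871, minus strand: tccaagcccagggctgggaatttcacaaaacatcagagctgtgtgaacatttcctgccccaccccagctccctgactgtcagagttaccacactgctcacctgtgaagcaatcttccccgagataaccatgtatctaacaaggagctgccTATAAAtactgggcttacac
In H2-Aa the Y box letters ran from 51 to 44 bases before the start. In H2-Eb1 they ran from 62 to 55 bases before it, and the X box core from 89 to 82. Of 8 class II family genes with a window, 4 held CTGATTGG (H2-Aa, H2-Eb1, H2-Eb2 and H2-Oa) and 4 held AACNGATG (H2-Eb1, H2-Eb2, H2-DMb1 and H2-DMb2), against 4.10% and 2.32% of all 32851 windows. TATAAA, found in 13.6% of windows, lay 30 to 25 bases before the start of S100a8 and directly at the annotated start of S100a9. A match describes the letters only, and no match says only that these letters are not in the window.

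All 10 genes had a higher mean TPM in the labelled knockout group, but none of the 9 that passed the count filter was called by edgeR at an adjusted p under 0.05, where 0.357% of all 12872 tested genes were. DESeq2 and limma called none of the 9 either, where DESeq2 called 1.18% of genes and limma 0.256% on log2(TPM + 1) and 0.326% on log2(TPM + 0.1). In the edgeR fit 2 of the 9, Ptprc and Csf1r, had an unadjusted p under 0.05, both higher, as had 5.03% of all tested genes. That share belongs beside each such count below. All 9 had a log2 fold change above 0, a direction shared by 50.4% of tested genes. Without labelled knockout library 4 this held for 6 of 9, with the run of file numbers as a covariate for 6 of 9, and without the 3 libraries high in Saa1 for 5 of 8. For 8 of the 9 tested genes the highest of the 10 libraries in log2 CPM was labelled knockout library 4, as it was for 14.1% of tested genes. The exceptions in TPM were S100a8 and S100a9, highest in labelled knockout library 5. In whole-tissue RNA, more cells of a type and more RNA per cell cannot be told apart.

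**Figure D1:**
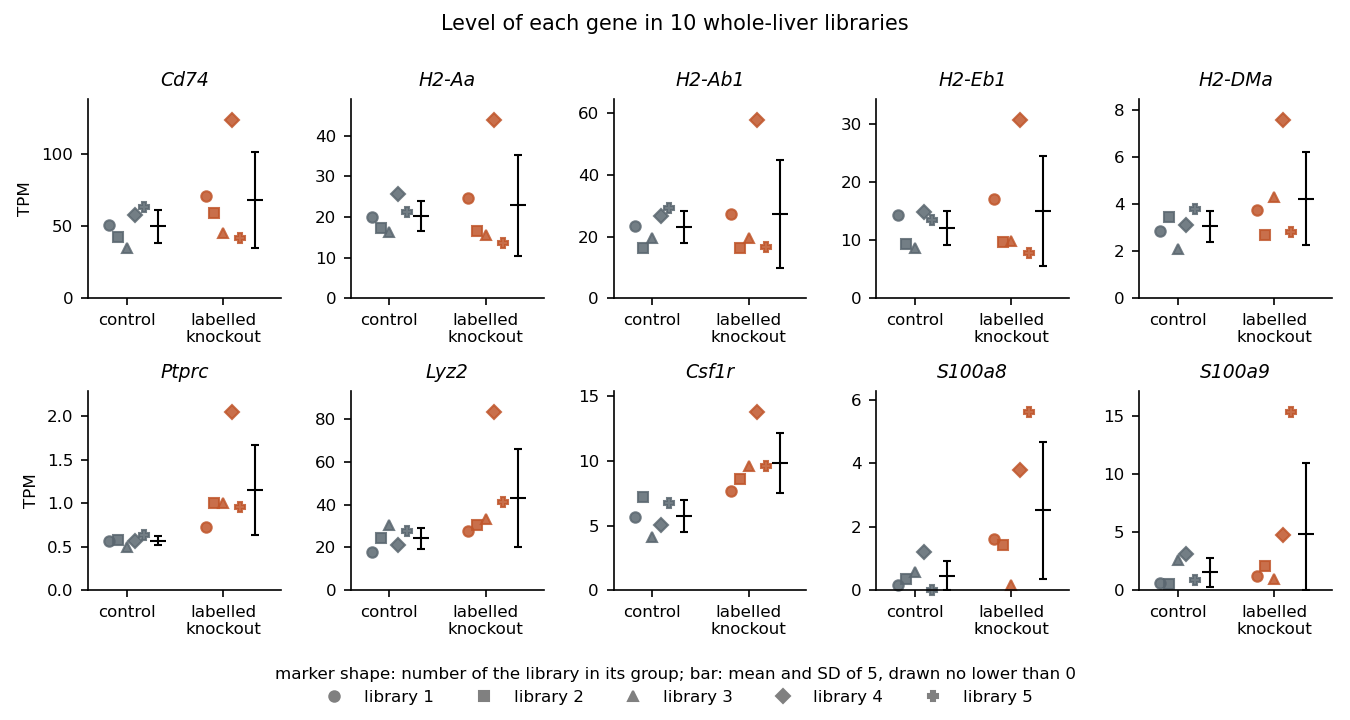
Level of the 10 genes in TPM (vertical axes, each from 0) in the 5 control libraries (grey) and the 5 labelled knockout libraries (orange); marker shape gives the library number and bars show mean and SD of 5, drawn no lower than 0. The diamond of labelled knockout library 4 is the highest point in 8 panels, up to 124 TPM for Cd74, and the plus sign of library 5 is the highest for S100a8 and S100a9.

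Cd74 was the most abundant of the class II transcripts. It stood at 51.1, 42.6, 35.1, 57.8 and 63.0 TPM in control libraries 1 to 5. The labelled knockout libraries, in the same order, held 71.3, 58.9, 45.2, 124 and 41.9 TPM. The groups overlapped: labelled knockout libraries 2, 3 and 5 lay inside the control range, library 1 a little above it and library 4 far above it. The means were 49.9 ± 11.3 and 68.1 ± 33.1 TPM (SD, n = 5 each), and the log2 fold change was 0.38 (SE 0.28, edgeR adjusted p = 0.74). Without labelled knockout library 4 the mean of the others was 54.3 TPM and the log2 fold change 0.05 (SE 0.19).

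The I-A alpha chain H2-Aa (GRCm38 chromosome 17, 34282744 to 34287823) was at 20.1, 17.4, 16.3, 25.7 and 21.2 TPM in the controls and at 24.6, 16.6, 15.6, 43.8 and 13.6 TPM in the labelled knockouts. Its partner H2-Ab1 (chromosome 17, 34257689 to 34269419) was at 23.6, 16.4, 19.5, 26.7 and 29.4 TPM in the controls and at 27.4, 16.2, 19.4, 57.7 and 16.5 TPM in the labelled knockouts. In TPM library 4 was, for both chains, the only labelled knockout library above every control. In log2 CPM labelled knockout library 1 also was for H2-Aa, at 4.38 against 4.34 in control library 4. The log2 fold change was 0.19 for H2-Aa (SE 0.31, edgeR adjusted p = 0.89) and 0.26 for H2-Ab1 (SE 0.35, edgeR adjusted p = 0.87). Without library 4 the sign of both turned, to -0.21 (SE 0.19) and -0.18 (SE 0.23), neither past the test.

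H2-Eb1, the I-E beta chain whose promoter held both boxes (chromosome 17, 34305867 to 34316674), was at 14.3, 9.31, 8.59, 14.8 and 13.5 TPM in the controls. In the labelled knockouts it was at 17.1, 9.75, 9.93, 30.6 and 7.78 TPM. In TPM libraries 1 and 4 lay above all controls, and library 5 below all of them. In log2 CPM library 5, at 3.1, lay above control library 2, at 2.71. Its log2 fold change was 0.27 (SE 0.36, edgeR adjusted p = 0.87), and -0.17 (SE 0.25) without library 4.

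H2-DMa, the alpha chain of the peptide exchanger H2-DM (chromosome 17, 34119541 to 34139101), was the lowest class II member. It was at 2.86, 3.47, 2.08, 3.12 and 3.82 TPM in the controls and at 3.77, 2.69, 4.31, 7.58 and 2.83 TPM in the labelled knockouts. In TPM, labelled knockout libraries 3 and 4 exceeded every control. In log2 CPM library 3, at 1.7, lay below control library 5, at 1.81. Its log2 fold change was 0.43 (SE 0.29, edgeR adjusted p = 0.72), and 0.10 (SE 0.23) without library 4. H2-DMa overlaps Brd2 on the opposite strand, and whether strand was used in counting is not given in the sources used here.

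The proportions of the 5 class II transcripts moved less between libraries than their sum did. Their summed level was 112, 89.1, 81.6, 128 and 131 TPM in the controls and 144, 104, 94.5, 263 and 82.7 TPM in the labelled knockouts. In TPM labelled knockout library 4 held the highest sum and labelled knockout library 1 the next, while library 5 held nearly the lowest. In log2 CPM, centred over the libraries, the class II mean of library 5 was -0.18. Control libraries 2 and 3 (-0.53 and -0.19) and labelled knockout libraries 2 and 3 (-0.49 and -0.38) lay lower. Cd74 made up 43.0% to 56.6% of the sum over the 10 libraries, H2-Aa 15.9% to 20.1%, H2-Ab1 15.5% to 23.9%, H2-Eb1 9.37% to 12.8% and H2-DMa 2.44% to 4.56%. The ratio of H2-Ab1 to H2-Aa ran from 0.940 to 1.39, with means of 1.15 ± 0.171 in controls and 1.17 ± 0.132 in labelled knockouts (SD, n = 5 each). The share of Cd74 averaged 45.9 ± 2.10% in controls and 50.3 ± 3.79% in labelled knockouts. That of H2-Aa averaged 18.7 ± 1.68% and 16.5 ± 0.399%. Cd74 over the sum of H2-Aa, H2-Ab1 and H2-Eb1 averaged 0.901 ± 0.0852 and 1.09 ± 0.174. Its ranges overlapped, at 0.790 to 0.989 and 0.935 to 1.38. These group differences in proportion were not tested.

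Likeness between genes was measured as the root mean square difference of centred log2 CPM over the 10 libraries, which share depth and scaling. From the mean class II pattern, H2-Ab1 differed by 0.099, H2-Aa by 0.104, Cd74 by 0.122, H2-Eb1 by 0.139 and H2-DMa by 0.231, with each gene part of that mean. Ptprc, Csf1r and Lyz2 lay farther off, at 0.460, 0.479 and 0.520, and S100a9 at 1.32. The median over 11725 genes was 0.563. Among genes outside the 10, the nearest patterns were those of Sept1 (0.193), Vamp5 (0.205), Eif4e3 (0.214), Snhg1 (0.236) and Susd2 (0.242). Each of these also had its highest TPM in labelled knockout library 4, for example 23.8 TPM of Vamp5 against 9.40 to 16.7 TPM in the controls.

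Other molecules of the pathway were read from a list of 10 that includes the 5 members. Of 8 tested, edgeR called 0, DESeq2 and limma 0, and 0 had an unadjusted p under 0.05; the median log2 fold change was 0.41, against 0.00 over all tested genes. It was 0.07 without labelled knockout library 4, 0.20 with the run of file numbers as a covariate and 0.08 without the libraries high in Saa1. H2-DMb1, an H2-DM beta chain, was at 0.47 on the log2 scale (SE 0.31), and H2-Ob, a beta chain of the H2-DM inhibitor H2-O, at 0.74 (SE 0.39, edgeR adjusted p = 0.65). H2-DMb1 and H2-DMb2 share 31.4% and 29.7% of their 31-base stretches with each other, so the split of counts between them is uncertain. H2-Eb2 and H2-Oa were too low to test, with 5 and 22 counts in all controls and 8 and 32 in all labelled knockouts.

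The factors and proteases around class II were read from a second list, of which 13 of 15 were tested. None was called by edgeR, DESeq2 or limma, 3 had an unadjusted p under 0.05 in the edgeR fit, all higher, and the median log2 fold change was 0.32. It was 0.23 without library 4, 0.08 with the run as a covariate and 0.14 without the libraries high in Saa1. Ciita, the coactivator that switches class II promoters on, was sparse, with 42 counts in the controls and 77 in the labelled knockouts (log2 fold change 0.79, SE 0.42, edgeR adjusted p = 0.65). Ctss, the cathepsin that trims the invariant chain, averaged 13.2 ± 2.86 and 22.1 ± 7.98 TPM (SD, n = 5 each; log2 fold change 0.71, SE 0.21, edgeR adjusted p = 0.29). Ctsl, the most abundant of the list, averaged 260 ± 99.9 and 291 ± 47.4 TPM. The costimulatory ligand Cd86 had a log2 fold change of 0.97 (SE 0.36, edgeR adjusted p = 0.47).

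MHC class I presentation and interferon response genes, which share some regulators with class II, were read beside them. Of 16 class I genes tested, edgeR, DESeq2 and limma called 0, 0 had an unadjusted p under 0.05, the median log2 fold change was 0.07 (0.02 with the run as a covariate) and 4 were highest in library 4. Tap1, a subunit of the peptide transporter, had a log2 fold change of 0.62 (SE 0.31, edgeR adjusted p = 0.63). B2m, the class I light chain, averaged 2202 ± 199.6 and 2413 ± 274 TPM. Of 17 interferon response genes, edgeR, DESeq2 and limma called 0, 4 had an unadjusted p under 0.05, 16 had a log2 fold change above 0 and 1 was highest in library 4. Their median was 0.37, 0.45 without library 4, 0.20 with the run as a covariate and 0.51 without the libraries high in Saa1. Their summed level was 491 TPM in labelled knockout library 2, 206 to 286 TPM in the other labelled knockouts and 159 to 254 TPM in the controls. Iigp1, an immunity-related GTPase and the most abundant of the list, averaged 80.4 ± 16.6 and 107 ± 40.4 TPM. The guanylate-binding protein Gbp2, highest in labelled knockout library 2, had a log2 fold change of 1.01 (SE 0.31, edgeR adjusted p = 0.32).

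Ptprc gave no overlap between the groups. It was at 0.563, 0.580, 0.494, 0.565 and 0.639 TPM in the controls and at 0.725, 1.01, 1.01, 2.05 and 0.958 TPM in the labelled knockouts (chromosome 1, 138062861 to 138175708). Every labelled knockout library lay above every control, and library 4 above all others. The counts behind these levels were 47 to 58 per control library and 64 to 187 per labelled knockout library. The log2 fold change was 0.93 (SE 0.28, unadjusted p = 0.0054, edgeR adjusted p = 0.30), and 0.60 (SE 0.22) without library 4.

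Csf1r was the other gene without overlap. It was at 5.68, 7.20, 4.13, 5.02 and 6.71 TPM in the controls and at 7.65, 8.62, 9.62, 13.8 and 9.61 TPM in the labelled knockouts (GRCm38 chromosome 18, 61100598 to 61132149). The lowest labelled knockout library lay just above the highest control, 7.65 against 7.20 TPM. The log2 fold change was 0.69 (SE 0.19, unadjusted p = 0.0025, edgeR adjusted p = 0.24), and 0.54 (SE 0.17) without library 4. Among all tested genes, 5.03% were higher with an unadjusted p under 0.05, and 0.948% were higher with no overlap in log2 CPM.

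Both differences were smaller when the libraries that stand apart were handled otherwise. With the run of file numbers as a covariate, the log2 fold change was 0.39 (SE 0.32) for Ptprc and 0.41 (SE 0.23) for Csf1r. Without the 3 libraries high in Saa1 it was 0.39 (SE 0.23) and 0.29 (SE 0.15). Within the first run, labelled knockout library 1 exceeded control libraries 1 and 2 for both genes, and within the second, labelled knockout library 3 exceeded control libraries 3, 4 and 5. These orders follow from the lack of overlap over all libraries and add nothing to it. The third run has no control to compare with, so the covariate fit takes no group difference from it. Testing all genes with no count filter brought Csf1r past the threshold, with an edgeR adjusted p of 0.027, against a range of 0.027 to 1.0 over the settings tried. That fit called 0.433% of 27507 genes. Csf1r overlaps Hmgxb3 on the opposite strand, which held 1092 counts in the controls and 926 in the labelled knockouts, and strand use in counting is not given in the sources used here.

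Lyz2 overlapped between the groups. It was at 17.8, 24.5, 30.3, 20.9 and 27.6 TPM in the controls and at 27.7, 30.5, 33.1, 83.1 and 41.1 TPM in the labelled knockouts (chromosome 10, 117277331 to 117282321). In TPM labelled knockout library 1 fell inside the control range, and in log2 CPM libraries 1, 2 and 3 did, at 4.84, 4.73 and 4.94 against 4.30 to 5.36. Library 4 held 2.51 times the mean of the other labelled knockout libraries. The log2 fold change was 0.76 (SE 0.35, edgeR adjusted p = 0.59), 0.39 (SE 0.27) without library 4 and 0.02 (SE 0.23) without the libraries high in Saa1. Lyz2 shares 32.8% of its 31-base stretches with Lyz1, a near copy used mainly by Paneth cells, which held 6 counts over the controls and 5 over the labelled knockouts.

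**Figure D2:**
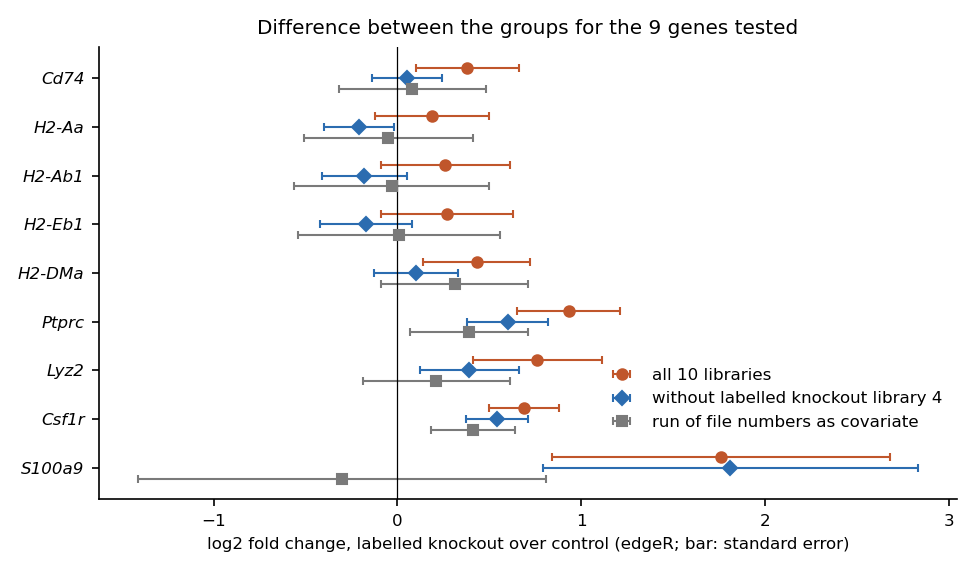
Log2 fold change (horizontal axis, labelled knockout over control; bars are standard errors) of the 9 genes tested by edgeR, over all 10 libraries (orange circles), without labelled knockout library 4 (blue diamonds) and with the run of file numbers as covariate (grey squares). H2-Aa, H2-Ab1 and H2-Eb1 lie below 0 without library 4, while Cd74, H2-DMa, Ptprc, Lyz2 and Csf1r are above 0 in all 3 fits, Cd74 at 0.05 and 0.08 in the latter 2.

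Class II was also set against Csf1r within each library. Summed class II TPM per Csf1r TPM ran from 12.4 to 25.5 in the controls (mean 19.4 ± 4.66) and from 8.61 to 19.1 in the labelled knockouts (mean 13.7 ± 4.99; SD, n = 5 each), ranges that overlap. Lyz2 per Csf1r averaged 4.43 ± 1.68 and 4.18 ± 1.09.

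**Figure D3:**
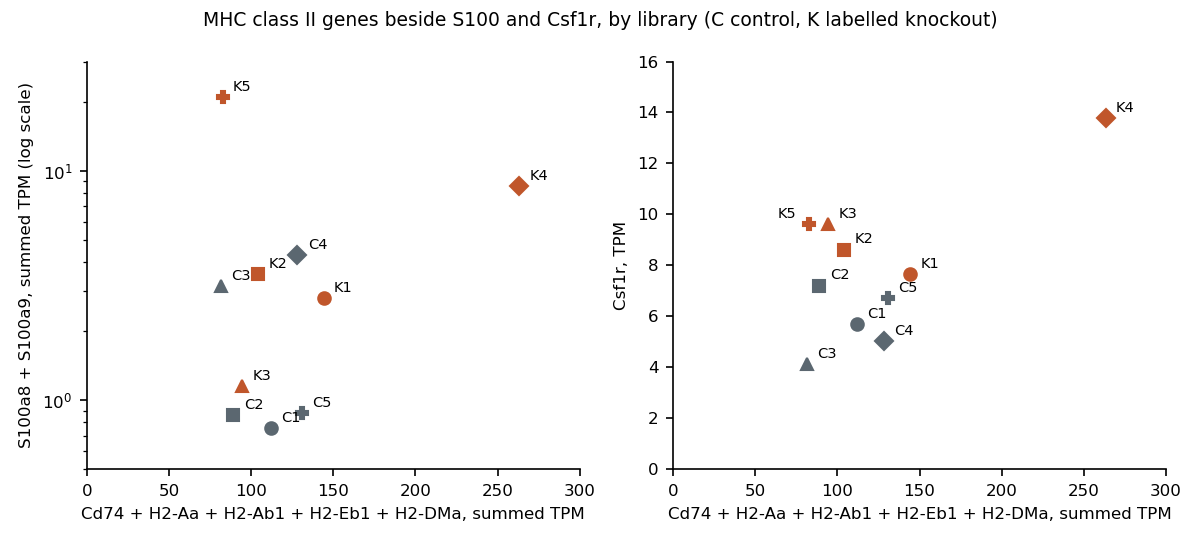
Each point is 1 library (C control, K labelled knockout, with its number); the horizontal axes give the summed TPM of the 5 class II genes, the vertical axes the summed TPM of S100a8 and S100a9 on a log scale (left) and Csf1r TPM (right). K4 is far right at 263 TPM of class II, while K5, at 82.7 TPM of class II, tops the S100 axis at 20.9 TPM. In centred log2 CPM the class II mean of K5 is not near the lowest, at -0.18 against -0.53 in C2.

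Monocyte and macrophage genes pointed the same way as Csf1r and Lyz2, which are among them. Of 17 tested of 20 listed, edgeR called 0, limma 0 and DESeq2 1 (Cybb), where DESeq2 called 1.18% of all genes. In the edgeR fit 10 had an unadjusted p under 0.05, all higher, against 5.03% of all tested genes. Of the 17, 3 did not overlap between the groups, all higher, against 0.948% of all tested genes. The median log2 fold change was 0.76, 0.43 without labelled knockout library 4, 0.43 with the run as a covariate and 0.37 without the libraries high in Saa1, and 14 of the 17 were highest in library 4. Cybb, the oxidase subunit of phagocytes, averaged 1.23 ± 0.237 and 2.21 ± 0.690 TPM (log2 fold change 0.77, SE 0.20, edgeR adjusted p = 0.22). The myeloid master regulator Spi1 also did not overlap (log2 fold change 0.78, SE 0.23, edgeR adjusted p = 0.27).

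Of 11 Kupffer cell genes, edgeR called 0, limma 1 (Marco) and DESeq2 3 (Vsig4, Cd5l and Marco). Over all genes limma called 0.256% or 0.326% and DESeq2 1.18%. In the edgeR fit 7 of the 11 Kupffer cell genes had an unadjusted p under 0.05, all higher, against 5.03% of all tested genes. The median log2 fold change was 0.66. It was 0.57 without library 4, 0.38 with the run as a covariate and 0.21 without the libraries high in Saa1. Marco, a scavenger receptor, averaged 1.32 ± 0.746 TPM and 6.91 ± 4.19 TPM (SD, n = 5 each) with no overlap (log2 fold change 2.37, SE 0.48, edgeR adjusted p = 0.097). C1qa, the most abundant, averaged 40.2 ± 7.06 and 65.3 ± 25.2 TPM. Of 13 pan-leukocyte genes, which include Ptprc, edgeR, DESeq2 and limma called 0. In the edgeR fit 9, Ptprc among them, had an unadjusted p under 0.05, all higher, again against 5.03%. The median was 0.63. It was 0.42 without library 4, 0.39 with the run as a covariate and 0.28 without the libraries high in Saa1. Coro1a, the leukocyte actin regulator, had a log2 fold change of 1.09 with no overlap (SE 0.31, edgeR adjusted p = 0.27), while Lcp1, the most abundant of that list, had 0.01 (SE 0.11).

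The ligands and relatives of Csf1r were read beside it. Of 6 tested, edgeR, DESeq2 and limma called 0, 3 had an unadjusted p under 0.05, and the median log2 fold change was 0.60. The ligand Csf1 averaged 2.08 and 2.86 TPM (log2 fold change 0.52, SE 0.26, edgeR adjusted p = 0.61), and the ligand Il34 1.19 and 1.42 TPM (0.42, SE 0.42).

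Markers of other cells, some of which use class II, were read in the same libraries. Of 7 B and plasma cell genes tested of 9, edgeR called 1, where it called 0.357% of all tested genes. It was Igkc, the kappa light chain constant region, at 8.46 ± 2.63 and 22.5 ± 6.73 TPM (log2 fold change 1.39, SE 0.23, edgeR adjusted p = 0.013). DESeq2 and limma also called Igkc alone. In the edgeR fit 4 of the 7 had an unadjusted p under 0.05, all higher. Their median log2 fold change was 1.06, 0.85 without library 4, 0.92 with the run as a covariate and 0.77 without the libraries high in Saa1. The summed level of the B and plasma cell list was 50.2 TPM in library 4, 29.2 to 41.4 TPM in the other labelled knockouts and 10.8 to 30 TPM in the controls. Of 6 dendritic cell genes tested of 14, edgeR, DESeq2 and limma called 0, 1 had an unadjusted p under 0.05 (Irf8, log2 fold change 0.41, SE 0.18, edgeR adjusted p = 0.58), and 4 were highest in library 4. The dendritic cell list summed to 382 TPM in library 4, 316 to 410 TPM in the other labelled knockouts and 246 to 396 TPM in the controls, most of it from Bst2 and Cst3, which other cells use too. Of 3 T and NK cell genes tested of 12, edgeR, DESeq2 and limma called 0 and 0 had an unadjusted p under 0.05. That list summed to 13.8 TPM in library 4 against 2.999 to 7.45 TPM in the controls and 6.21 to 8.17 TPM in the other labelled knockouts. Ccl5, the T and NK cell gene with the smallest p and the highest level, had a log2 fold change of 0.67 (SE 0.32, edgeR adjusted p = 0.60). Of 10 endothelial genes, edgeR and limma called Emcn and Cd34, and DESeq2 also Pecam1 and Tie1, all higher. Over all genes edgeR called 0.357%, DESeq2 1.18% and limma 0.256% or 0.326%. In the edgeR fit 5 of the 10 endothelial genes had an unadjusted p under 0.05, all higher. Their median log2 fold change was 0.61, 0.46 without library 4, 0.77 with the run as a covariate and 0.45 without the libraries high in Saa1. Emcn and Cd34 had log2 fold changes of 2.02 (SE 0.28, edgeR adjusted p = 0.0045) and 2.80 (SE 0.44, edgeR adjusted p = 0.012). Clec4g, a lectin of sinusoidal endothelium and the most abundant of the list, had -0.02 (SE 0.29). The endothelial list summed to 87.3 TPM in library 4, 43.9 to 66.4 TPM in the other labelled knockouts and 28.5 to 61.9 TPM in the controls. Of 5 erythroid genes tested of 7, edgeR, DESeq2 and limma called 0 and 2 had an unadjusted p under 0.05. The globin Hbb-bs had a log2 fold change of 1.01 (SE 0.41, edgeR adjusted p = 0.55) and the globin Hba-a2 of 0.61 (SE 0.34). Erythroid transcripts summed to 3981 TPM in library 4, against 860 to 2396 TPM in the controls and 1781 to 1860 TPM in the other labelled knockouts. No gene of these lists was at 0 in every library, and the part of these cells in the class II levels was not tested.

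**Figure D4:**
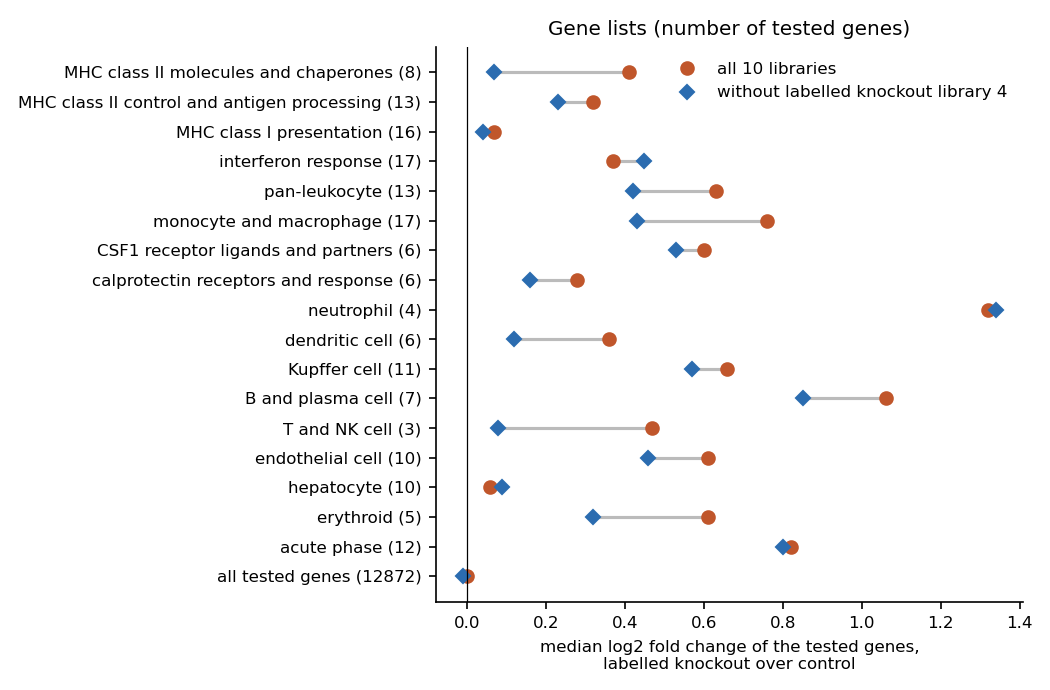
Median log2 fold change (horizontal axis, labelled knockout over control) of the tested genes in each list, whose number stands in brackets, over all 10 libraries (orange circles) and without labelled knockout library 4 (blue diamonds). The class II molecules move from 0.41 to 0.07 when library 4 is left out. The neutrophil and acute phase genes, nearly all highest in library 5, lie at 1.34 and 0.80 without library 4. The neutrophil list includes Lcn2, which hepatocytes also make.

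S100a8 and S100a9 followed another library. S100a8 (chromosome 3, 90668978 to 90670035) was at 0.161, 0.362, 0.581, 1.20 and 0 TPM in the controls, from 1, 2, 4, 7 and 0 counts. In the labelled knockouts it was at 1.6, 1.42, 0.175, 3.79 and 5.62 TPM, from 10, 8, 1, 24 and 39 counts. Library 5 was highest, library 4 next, and library 3 lay within the control range. The 0 in control library 5 allows up to 3 counts, or 0.141 CPM, from counting error alone.

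S100a8 was too low for the count filter, and its mean TPM differed by 2.06 between the groups (0.461 ± 0.467 and 2.52 ± 2.17 TPM; SD, n = 5 each). An exact two-sided permutation test over the libraries gave p = 0.0476, where 0.0079 is the smallest possible. This p is unadjusted and for S100a8 alone, and the share of other low genes that would reach it was not computed. It did not stay under 0.05 when any control or labelled knockout library 4 or 5 was left out. Nor did it without the libraries high in Saa1, where the difference was 0.79 TPM (exact permutation p = 0.114). An edgeR fit of all genes with no count filter gave a log2 fold change of 2.48 and an adjusted p of 0.46. Over group totals there were 14 counts against 82, a ratio of 5.89 (95% interval 3.32 to 11.2, counting error only), and 3.85 (2.07 to 7.62) without library 5.

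S100a9 (chromosome 3, 90692632 to 90695721) was at 0.595, 0.500, 2.55, 3.10 and 0.875 TPM in the controls and at 1.18, 2.11, 0.972, 4.77 and 15.3 TPM in the labelled knockouts. Libraries 4 and 5 exceeded all controls, and the other 3 lay among them. Library 5 alone held 65.7% of the labelled knockout counts of S100a9 (115 of 175). The log2 fold change was 1.76 (SE 0.92, edgeR adjusted p = 0.65), and -0.30 (SE 1.11) with the run of file numbers as a covariate. The group difference in that covariate fit does not draw on library 4 or 5, which lie in the run without controls. The ratio of group totals was 3.39 (95% interval 2.47 to 4.71, counting error only), and 1.45 (0.981 to 2.14) without library 5.

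Acute-phase transcripts were high in the same libraries as calprotectin. Of 12 acute phase genes, edgeR, DESeq2 and limma called 0, 0 had an unadjusted p under 0.05, the median log2 fold change was 0.82, and 11 were highest in labelled knockout library 5, as were 16.1% of all tested genes. With the run of file numbers as a covariate the median was -0.23, and without the libraries high in Saa1 0.47. Haptoglobin, Hp, averaged 3210 ± 2719 and 5642 ± 3167 TPM, and hemopexin, Hpx, 4547 ± 3937 and 7223 ± 3698 TPM (SD, n = 5 each). The summed level of the list was 61548 TPM in library 5, 34656 TPM in library 4, 8943 to 18970 TPM in the other labelled knockouts and 7413 to 42768 TPM in the controls, with control library 4 the highest control. Lcn2, which both neutrophils and hepatocytes make, was at 1111 TPM in library 5 and 592 TPM in control library 4. The genes nearest in pattern to the mean of S100a8 and S100a9 were Nnmt (0.688), Apcs (0.701), Cxcl14 (0.714), Hist1h4h (0.733) and Mmp12 (0.754), against a median of 1.35 over all genes. The part of the acute-phase state in the S100 levels was not tested.

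Other neutrophil genes were read beside the S100 pair. Of 17 listed genes 4 passed the count filter: S100a9, Csf3r, Lcn2 and Wfdc21. Of these, edgeR, DESeq2 and limma called 0, 1 had an unadjusted p under 0.05, and all 4 were highest in labelled knockout library 5. Their median log2 fold change was 1.32, and -0.11 with the run of file numbers as a covariate; without the libraries high in Saa1, 3 of them could be fitted, with a median of 0.55. Csf3r, the G-CSF receptor, averaged 0.363 ± 0.151 and 0.822 ± 0.321 TPM (log2 fold change 1.10, SE 0.45, edgeR adjusted p = 0.52). Wfdc21, the most abundant, averaged 667 ± 159 and 913 ± 284 TPM. Lcn2 is made by hepatocytes too, and which cells gave the Wfdc21 RNA was not tested, so the median need not describe neutrophils. The neutrophil surface marker Ly6g held 3 counts over the controls and 2 over the labelled knockouts, and the granule protease Elane 17 in each. Retnlg, another neutrophil transcript, held 9 and 38 counts. Of the molecules through which calprotectin acts and the genes downstream, 6 of 10 were tested; edgeR, DESeq2 and limma called 0, 0 had an unadjusted p under 0.05, and the median was 0.28 (0.16 without library 4, 0.19 with the run as a covariate). Tlr4, a receptor of calprotectin, was too low to test, with 51 counts in the controls and 65 in the labelled knockouts. The most abundant of that list, the NF-kB inhibitor Nfkbia, had a log2 fold change of -0.09 (SE 0.19), and Casp1 of 0.67 (SE 0.35, edgeR adjusted p = 0.65).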

How the data were processed

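Whole mouse liver RNA was measured in 10 libraries, 5 per group. Per the submitters' processing notes, Trim Galore 0.6.4, kallisto 0.4.6 and the build GRCm38.p6 were used; how transcripts were brought to genes is not given in the sources used here. Estimated counts and TPM per gene were used as deposited by the authors, TPM for levels and estimated counts, rounded to whole numbers, for tests. Of 55385 IDs, 55144 matched a symbol in GENCODE M21. Genes passing filterByExpr (minimum count 10) were scaled by TMM and tested by quasi-likelihood in edgeR 4.0.16 under R 4.3.3 (robust, group as the only term), with Benjamini-Hochberg adjustment over 12872 genes and a threshold of 0.05. Log2 CPM used a prior count of 2. The script was tested on simulated data. S100a8 was tested by exact permutation of TPM. Alternatives were DESeq2 1.42.0, limma 3.58.1 on log2(TPM + 1) and log2(TPM + 0.1), other scalings and filters, a replicate block, the file run as covariate, and leaving out each library. The fit without libraries with Saa1 above 1000 TPM was chosen after seeing the data.

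The members and lists were chosen with earlier results of these data known, and support nothing by themselves. Named from each list were called genes, the one with the smallest p and the most abundant one, except Fgb of the hepatocyte list and the Y-linked genes of a sex check, which are not described; the other genes named, such as Ciita, Cd86, Spi1, Csf1, Il34, Tlr4, Ly6g, Elane, Retnlg, Saa1 and Lcn2, were chosen after their values were seen. Intervals for ratios of counts are 95% exact binomial intervals.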

Additional observations from a re-analysis of the deposited data

Results flagged for a closer look

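In each group of 5, a library was marked when its gap to the next, divided by the group's range, exceeded 0.71; chance does this in about 1 group in 20, and 4 of 20 were marked. Labelled knockout library 4 stood apart for H2-Ab1 (57.7 TPM, next 27.4 TPM), Ptprc (2.05 TPM, next 1.01 TPM) and Lyz2 (83.1 TPM, next 41.1 TPM). Labelled knockout library 5 stood apart for S100a9 (15.3 TPM, next 4.77 TPM).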

How the results depend on the processing

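Of the 8 to 10 members that each fit across all genes could test, 0 were called in every setting run except edgeR with no filter on low counts, where 1 of 10 was (Csf1r); leaving out each library in turn gave 0 to 0. Over all genes 46 were called, and 119 with no filter, 24 with the stricter filter (minimum count 50), 152 by DESeq2, 5 with the run of file numbers as covariate, 30 without the libraries with Saa1 above 1000 TPM, and 33 to 83 when each library was left out in turn (83 without labelled knockout library 1). Over all tested genes the replicate numbers gave little sign of pairing. Deviations of same-numbered libraries correlated at 0.28, 0.08, -0.10, -0.04 and 0.11, and 2 of 5 controls correlated best with their own number. This check cannot show that pairing was absent. With the replicate block the SE fell from 0.31 to 0.20 for H2-Aa, 0.35 to 0.23 for H2-Ab1, 0.36 to 0.20 for H2-Eb1 and 0.28 to 0.20 for Cd74. It went from 0.29 to 0.28 for H2-DMa, 0.28 to 0.27 for Ptprc, 0.35 to 0.34 for Lyz2 and 0.92 to 0.85 for S100a9. For Csf1r it stayed at 0.19. With the replicate block, 40 genes and 0 of the members were called.

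Signs turned for H2-Aa (-0.21), H2-Ab1 (-0.18) and H2-Eb1 (-0.17) without labelled knockout library 4, for H2-Aa (-0.05), H2-Ab1 (-0.03) and S100a9 (-0.30) with the run as covariate, and for H2-Aa (-0.10), H2-Ab1 (-0.16) and H2-Eb1 (-0.04) without the libraries high in Saa1. Leaving out each library in turn gave -0.21 to 0.33 for H2-Aa, -0.18 to 0.43 for H2-Ab1 and -0.17 to 0.43 for H2-Eb1. The S100a8 difference ran from 1.29 to 2.65 TPM when each library was left out. Its unadjusted exact permutation p was then under 0.05 only without labelled knockout library 1, 2 or 3. The difference was 0.79 TPM without the libraries high in Saa1. The cause was not tested. S100a8 at 0 to 39 counts and Ptprc at 47 to 187 counts per library are limited by depth.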
